A study of Mus musculus with 4 samples.

Results

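Peaks of the thyroid hormone receptor alpha 1 (TRα1) whose summit lay within 1 kb of either annotated end of a protein-coding gene were analysed in mouse striatum. The study sequenced 3 immunoprecipitated (IP) fractions and 1 input library of striatum on an Ion Proton instrument. The animals carried Gad2-Cre and a Thra-GS allele, so that the IP libraries and the input share the same genotype. Gad2-Cre is known to drive Cre recombinase in GABAergic neurons, and the GS tag on TRα1 is held by IgG-coated beads. The labels do not give the age, sex or number of animals, and an IP from untagged animals was not analysed here. The files hold 1 peak list for the whole series (mm10), without a value per library, so no replicate error can be given. Every interval and p below covers counting error or the spread among peaks of this 1 list. Of 7484 peaks, 7412 lie on autosomes, and 1275 of these have their summit at a gene end. The other 6137 autosomal peaks are 3670 inside coding gene spans and 2467 outside them.

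TRα1 is a nuclear receptor that binds DNA with or without its hormone, usually as a heterodimer with a retinoid X receptor. Its best known element is a direct repeat of the half-site AGGTCA with 4 bases between the copies. With hormone the receptor recruits coactivators, and without it corepressors. The start of a gene holds its core promoter, and many promoters in mouse are CpG islands.

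Sequences near the summits are shown first, because they tell how often the letters of the receptor's best known element lie there. RefSeq promoter windows of GRCm38, from 250 bases before to 50 after a listed start, covered the summits of 355 gene-end peaks in 392 windows of 375 genes. A direct repeat of AGGTCA with 4 bases between the copies, at most 2 mismatches over both copies and either strand, was found in 34 of 392 windows with a summit (8.67%, 95% exact interval 6.08 to 11.9). It was found in 534 of all 20085 coding promoter windows (2.66%). The following 11 elements are the 3 with 1 mismatch and the 8 with 2 mismatches from the peaks of highest fold with a gene name of their own. They are written 5′ to 3′ on the strand named, with 10 bases on each side, and capitals mark both half-site copies.

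Phc3, chr3:30969478-30969513, plus strand: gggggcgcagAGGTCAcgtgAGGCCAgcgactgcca
Chchd1, chr14:20703009-20703044, plus strand: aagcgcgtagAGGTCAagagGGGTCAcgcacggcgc
Washc2, chr6:116207998-116208033, plus strand: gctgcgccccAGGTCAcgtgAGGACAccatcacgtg
Cep126, chr9:8134650-8134685, plus strand: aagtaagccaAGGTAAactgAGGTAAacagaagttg
Krtcap2, chr3:89246216-89246251, plus strand: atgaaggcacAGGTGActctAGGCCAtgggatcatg
Agk, chr6:40325379-40325414, plus strand: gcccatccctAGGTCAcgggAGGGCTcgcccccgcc
Fam214b, chr4:43046185-43046220, plus strand: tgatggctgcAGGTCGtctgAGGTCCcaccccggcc
Slc35g1, chr19:38395959-38395994, plus strand: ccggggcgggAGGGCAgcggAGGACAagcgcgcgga
Coa4, chr7:100536892-100536927, minus strand: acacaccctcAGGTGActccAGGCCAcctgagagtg
Ube2g1, chr11:72607031-72607066, minus strand: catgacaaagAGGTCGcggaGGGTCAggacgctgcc
Alkbh7, chr17:56997155-56997190, minus strand: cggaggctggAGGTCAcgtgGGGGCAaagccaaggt

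The elements are imperfect repeats. No coding promoter window, with a summit or without, held a repeat with no mismatch, and at most 1 mismatch was met in 3 of 392 windows with a summit (0.765%) and in 33 of all 20085 (0.164%). Of 33 distinct elements in the windows with a summit, 14 had at least 1 exact copy of the half-site. In the second copy of the half-site, both G bases were kept in 31 of 33 elements each, and the T in 22 of 33. In the first copy they were kept in 30 each and in 25. The limit of 2 mismatches by itself keeps most letters, and no letter counts from the matches in all windows are given beside these. In 3 elements, those of Phc3, Washc2 and Alkbh7, the letters of the first copy and the spacer also spell an E-box (CACGTG), the site of basic helix-loop-helix factors.

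At 2 mismatches, the spacing of 4 had the highest share among the spacings in the same windows. Direct repeats with 0 to 3 or 5 to 12 bases between the copies were found in 2.04% to 3.83% of windows with a summit and in 2.27% to 3.37% of all windows. Inverted repeats at the 13 spacings were found in 0.765% to 2.55% of windows with a summit, against 0.822% to 1.38% of all windows. Everted repeats were found in 0.255% to 2.296% of windows with a summit, against 1.07% to 1.35% of all windows. In all, 39 pairs of arrangement and spacing were examined, and the limit of 2 mismatches was taken after results at 0, 1 and 2 had been seen. At 1 mismatch the counts are too small to set it apart, since the other 38 pairs were in 0 to 3 of 392 windows with a summit. With the fourth half-site base left free (AGGNCA) and no other mismatch, the repeat spaced by 4 was in 4 of 392 windows with a summit (1.02%) and 36 of all 20085 (0.179%). With at most 3 mismatches the repeat spaced by 4 was in 34.7% of windows with a summit and in 20.4% of all windows.

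**Figure D1:**
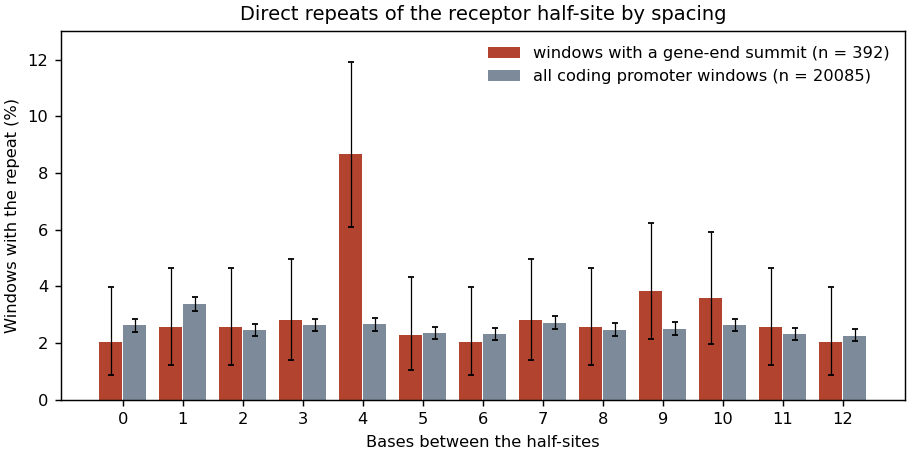
Share of promoter windows (y axis, percent) that hold a direct repeat of the half-site with at most 2 mismatches, by the number of bases between the copies (x axis), for windows with a gene-end summit (red, left bars) and all coding promoter windows (grey, right bars). Error bars are 95% exact intervals, and at a spacing of 4 the shares are 8.67% and 2.66%.

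The repeat spaced by 4 went with the position of the summit. Of the 33 elements, 22 (66.7%, 48.2 to 82.0) were centred within 25 bp of the summit and 26 within 50 bp, with a median distance of 19.5 bp. Windows of genes whose start has a peak but whose summit lies outside the window held the repeat in 19 of 912 cases (2.08%, 1.26 to 3.23). Counted per peak, 32 of 355 held it (9.01%, 6.25 to 12.49). It was not limited to the highest peaks, being in 11 of 110 with a fold of at least 10 and in 21 of 245 below (8.57%). The median fold over background was 8.62 in peaks with the repeat and 7.53 in those without.

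**Figure D2:**
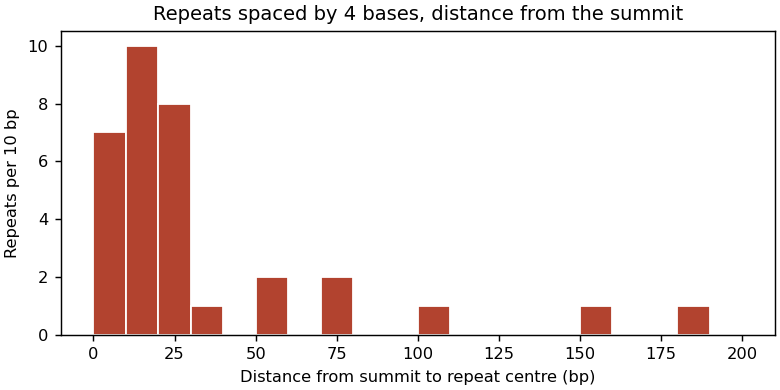
Distance from the peak summit to the centre of each direct repeat spaced by 4 (x axis, bp) for the 33 elements in windows with a gene-end summit, counted per 10 bp (y axis). Of these, 22 lie within 25 bp, and the 300 bp length of a window limits the distances that can be seen.

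The repeat is not confined to coding genes. Among promoter windows of non-coding genes that hold the summit of another autosomal peak, 9 of 40 had it (22.5%, 10.8 to 38.5), against 419 of all 11311 non-coding windows (3.70%). Base composition differed between the windows compared. Windows with a gene-end summit had a median GC content of 62.0% and 84.2% were CpG-rich, meaning an observed over expected CpG of at least 0.6, against 57.0% and 48.9% of all coding windows. Within CpG-rich windows the repeat was in 26 of 330 with a summit (7.88%, 5.21 to 11.3) and in 1.70% of all. Within CpG-poor windows it was in 8 of 62 with a summit (12.9%, 5.74 to 23.9) and in 3.58% of all.

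Other core promoter motifs, searched as exact letters on both strands, followed the composition to different degrees. The GC box (GGGCGG), bound by Sp factors, was in 71.4% of windows with a summit and 47.0% of all, but in 75.2% and 74.3% of the CpG-rich ones. The ETS site (CCGGAAG) was in 27.3% of windows with a summit and 11.9% of all, and in 99 of 330 and 19.9% of the CpG-rich ones. The TATA box (TATAAA) was in 4.85% of windows with a summit and 12.7% of all, and in 4.55% and 5.56% of the CpG-rich ones. A single half-site AGGTCA was in 17.6% of windows with a summit and 14.7% of all, and in 16.7% and 9.50% of the CpG-rich ones. The NRF1 core (GCATGCGC), of a factor of nuclear genes for mitochondria, was in 9.44% of windows with a summit and 3.55% of all, and in 10.9% and 6.38% of the CpG-rich ones. In all, 14 single motifs were counted, a few longer ones were also looked at and are not reported, and a match is not a bound site.

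Most of the highest window peaks held no repeat spaced by 4, which was found in 4 of 29 with a fold of at least 20. Stretches around 3 summits of high fold without the repeat follow, with capitals marking copies of AGGTCA with at most 1 mismatch on either strand. They were picked from more such summits, and all 3 hold a copy. The stretches of Rtn4ip1 (fold 37.1), Ulk2 (29.3) and Rxrb (29.0), among others, held none. Such single copies are common, since 95.7% of windows with a summit and 91.6% of all coding windows hold at least 1.

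Flywch2, chr17:23786032-23786130, minus strand: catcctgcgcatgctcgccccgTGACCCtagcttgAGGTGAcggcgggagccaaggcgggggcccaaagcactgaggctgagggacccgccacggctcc
Uck1, chr2:32260104-32260204, minus strand: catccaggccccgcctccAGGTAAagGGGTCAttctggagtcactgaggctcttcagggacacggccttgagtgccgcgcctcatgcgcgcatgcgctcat
Ndufa5, chr6:24527577-24527677, minus strand: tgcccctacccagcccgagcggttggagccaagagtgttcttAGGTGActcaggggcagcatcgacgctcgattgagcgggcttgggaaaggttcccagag

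Gene-end peaks gathered at starts. The promoter table gave a strand for 16457 of 20665 autosomal coding genes, and 1048 of the gene-end peaks could be called with it. Of these, 916 had a summit within 1 kb of a start (87.4%, 85.2 to 89.4) and 132 only at a far end, while 227 had no strand call. A summit lay within 1 kb of the start at 1011 of the 16457 genes (6.14%) and within 1 kb of the far end at 195 (1.18%). The 195 include genes whose far-end summit also lies within 1 kb of a start, so they go beyond the 132 peaks. Summits were within 1 kb of both ends at 30 genes, at 12 of which a single peak counts for both ends of a short gene. Around starts the median summit lay 22.5 bp downstream, with quartiles 192 bp upstream (-192) and 319 bp downstream. In the 100 bp before the start lay 124 summits and in the 100 bp after it 122, against 6 in the most distant 100 bp upstream and 26 in the most distant 100 bp downstream. Around far ends, bins of 100 bp held 3 to 15 of 187 summits, which include ones also within 1 kb of a start. Of these 187, 16 (8.56%) lay within 100 bp of the end, against 246 of 916 (26.9%) at starts.

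**Figure D3:**
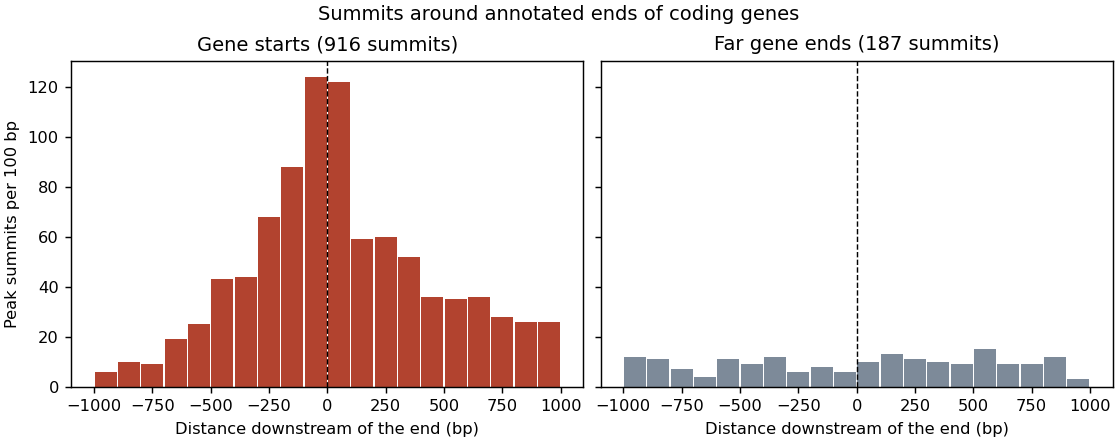
Number of peak summits per 100 bp (y axis) by distance downstream of the annotated end (x axis, bp, negative is upstream in the direction of the gene) for gene starts (left, red) and far gene ends (right, grey). Starts show a mode at 0 with 124 and 122 summits in the flanking bins, and no far-end bin exceeds 15. Summits within 1 kb of both a start and a far end are counted in both panels.

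Seen without strand, summits thinned with distance from an end. There were 298 summits per 100 bp of distance within 100 bp of an end, 128 at 251 to 500 bp, 69.6 at 501 to 1000 bp, 37.6 at 1 to 2 kb and 8.36 at 5 to 30 kb. The median fold lay between 6.71 and 7.53 in each bin out to 30 kb. The 20 members nearest to the 1 kb limit (958 to 1000 bp) had a median fold of 8.47, and the 20 peaks just past it (1003 to 1036 bp) had 7.34. Inside coding gene spans lay 59.1% of gene-end summits and 59.8% of other summits.

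Start peaks were higher over background than far-end peaks. The fold is the authors' ratio of pileup, the height of stacked fragments at the summit after the caller's scaling, to the local background. Start peaks had a lowest, median and highest fold of 3.205, 7.17 and 41.96, and far-end peaks 3.02, 6.41 and 29.99. Folds of 10 and above were found at 241 of 916 start peaks (26.3%) and 20 of 132 far-end peaks (15.2%), against 24.0% of all autosomal peaks. In a linear model on log2 values with chromosome as a factor and errors clustered by chromosome, start peaks were 1.13-fold higher (95% interval 1.03 to 1.24; log2 difference 0.18 ± 0.06, SE; adjusted p = 0.0239 over 7 tests, n = 916 and 132 peaks). The ranges overlap over most of their length, and without the 1% highest pileups and 1% widest peaks the adjusted p was 0.0573. Median width was 272.5 bp at starts and 259 bp at far ends, and this difference did not pass the test (log2 difference 0.09 ± 0.05, SE; adjusted p = 0.105, n = 916 and 132 peaks). It did pass among peaks with a -log10 q of at least 10 (log2 difference 0.18 ± 0.05, SE; adjusted p = 0.00364, n = 503 and 54 peaks).

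Against all other autosomal peaks, gene-end peaks were slightly wider, and no difference in height was detected. Width ran from 174 to 1403 bp with a median of 268 bp at gene ends, and from 174 to 1323 bp with a median of 258 bp elsewhere. The ratio was 1.031 (1.006 to 1.056; log2 difference 0.04 ± 0.02, SE; adjusted p = 0.0294, n = 1275 and 6137 peaks). Peaks over 400 bp wide were 186 of 1275 at gene ends (14.6%, 12.7 to 16.6) and 715 of 6137 elsewhere (11.7%, 10.9 to 12.5). The width call did not hold with a -log10 q of at least 10 (adjusted p = 0.0761, n = 673 gene-end peaks), with a 500 bp limit (adjusted p = 0.0894) or against peaks outside coding gene spans alone (adjusted p = 0.0661).

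Median pileup was 21.6 in both groups, and the ratio of 0.990 (0.957 to 1.024; log2 difference -0.01 ± 0.02, SE) did not pass the test (adjusted p = 0.536, n = 1275 and 6137). The median fold was 7.01 at gene ends and 6.91 elsewhere, a ratio of 1.026 (0.996 to 1.058; adjusted p = 0.105, n = 1275 and 6137). Folds of 20 and above were found at 60 gene-end peaks (4.71%, 3.61 to 6.02) and 205 other peaks (3.34%, 2.90 to 3.82). Gene-end peaks made up 17.2% of autosomal peaks, 184 of the 1000 of highest fold and 25 of the 100 of highest fold. The very highest values were elsewhere, since the highest fold was 41.96 at gene ends and 91.04 among the other peaks.

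**Figure D4:**
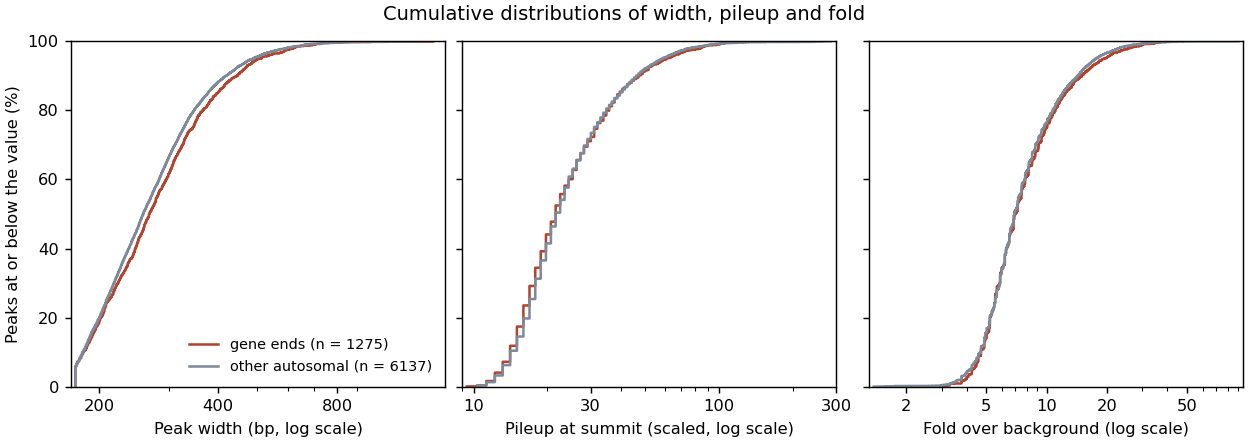
Cumulative share of peaks (y axis, percent) by width, by pileup at the summit and by fold over background (x axes, log scales) for the 1275 gene-end peaks (red) and the 6137 other autosomal peaks (grey). The width curve of gene-end peaks runs slightly to the right (medians 268 and 258 bp), and the pileup curves share a median of 21.6.

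The local background was lower at gene ends. Recovered from pileup and fold, it was 0.954-fold that of other peaks (0.936 to 0.973; log2 difference -0.07 ± 0.01, SE; adjusted p = 6.62e-04, n = 1275 and 6137), although the medians were both 2.00. The groups parted in the tails. Within 1% of the lowest background value of the list lay 528 of 1275 gene-end peaks (41.4%) and 2065 of 6137 other peaks (33.6%). No gene-end peak, and 26 other peaks, had a background over 4 times the lowest. At equal pileup gene-end peaks were 1.035-fold wider (log2 difference 0.05 ± 0.01, SE; adjusted p = 0.00179, n = 1275 and 6137), and this did not pass with a 500 bp limit (adjusted p = 0.0589) or at equal fold (log2 difference 0.03 ± 0.01, SE; adjusted p = 0.0650). Among peaks with a pileup of at least 50, median width was 424.5 bp at gene ends and 392 bp elsewhere, and among those under 15 it was 207 and 203 bp.

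The peaks of highest fold stood at genes of varied function. The top peak (chr17:23785827-23786323), 136 bp inside the start of Flywch2, a gene on the list of brain thyroid hormone targets, had a pileup of 120.19 and a fold of 41.96. Next came Nr1d2, whose product REV-ERBβ is a repressor in the circadian clock, with a fold of 39.6 at 763 bp downstream of its start. Chn1, a Rac GTPase-activating protein of neurons, had 39.4 at 287 bp upstream. Uck1, a uridine-cytidine kinase, had 36.2 at 49 bp upstream. Epb41l2 of the membrane skeleton had 35.1 and Reep4, of the endoplasmic reticulum, 34.2. Chromatin genes were among the 20 highest, with Dot1l, the histone H3 lysine methyltransferase, at 29.9 and Kmt2e at 29.9. Kmt2e also had the widest gene-end peak, at 1403 bp. Others were Med8 of the Mediator complex with 30.6, the autophagy kinase Ulk2 with 29.3, Lingo3 with 29.6, Cep126 with 28.8 and Ccdc130 with 27.9. The peak of Zswim4, with a fold of 29.99, was called at a far end only, and the start of the same gene had a peak of 3.46.

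Several of the highest peaks lay within 1 kb of ends of a pair of genes. Starts of genes on both strands lay within 1 kb of 121 of 916 start peaks (13.2%), whose median fold of 7.17 was the same as that of the other start peaks. The share of all gene starts with such a neighbour is not given here. Qrsl1 and Rtn4ip1, both of mitochondria, shared a peak of 37.1. Rxrb, the retinoid X receptor β and a dimer partner of TRα1, shared one of 29.0 with the zinc transporter Slc39a7. Ndufa5 of complex I shared one of 30.4 with Asb15, and Cep19 shared one of 32.7 with Pigx. The peak of Hnrnpul1, an RNA-binding protein, had 34.9 and lay 36 bp upstream of its start and 196 bp past the far end of Axl, a receptor tyrosine kinase. The list does not assign such a peak to either gene. Ends of 1, 2 and 3 genes lay within 1 kb of 1063, 207 and 5 gene-end peaks. The highest of the 5 was at Nup62, Il4i1b and Atf5, with a fold of 18.9, followed by Nme3, Mrps34 and Mapk8ip3 with 12.4.

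After Kmt2e, the widest were those of Trim46 and Krtcap2 (1078 bp, fold 23.1), Ppif, the mitochondrial cyclophilin (974 bp, 11.1), Cep126 (822 bp) and Agbl5 (774 bp, 8.80). The 5 narrowest named, at 174 bp, had folds of 4.48 to 6.28 and lay at Ttc19 with Zswim7, Spag7 with Camta2, Lgals9, Dhx8 and Efcab15 with Fmnl1. Many peaks tie at 174 bp.

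Of 20665 autosomal coding genes, 1434 had a gene-end peak (6.94%, 6.60 to 7.29), and the shares of 40 gene lists were read against this. Of the lists, 25 lay above it and 15 below. The exact interval lay wholly above it in 7 lists and wholly below in 2. The reference includes the 1685 genes of 3 tissue-restricted lists, of which 6 had a peak (0.356%), and it would be higher without them. Lower limits close to the reference, such as 7.26% for mitochondrial ribosomal proteins and 6.98% for synaptic genes, depend on that choice. Shares are descriptions without a test, and list members that share a peak are not independent. Genes with a gene-end peak had a median length of 20.9 kb and a mean of 5.39 transcripts, against 17.5 kb and 4.32 over all coding genes, and the part of length in the shares was not tested.

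**Figure D5:**
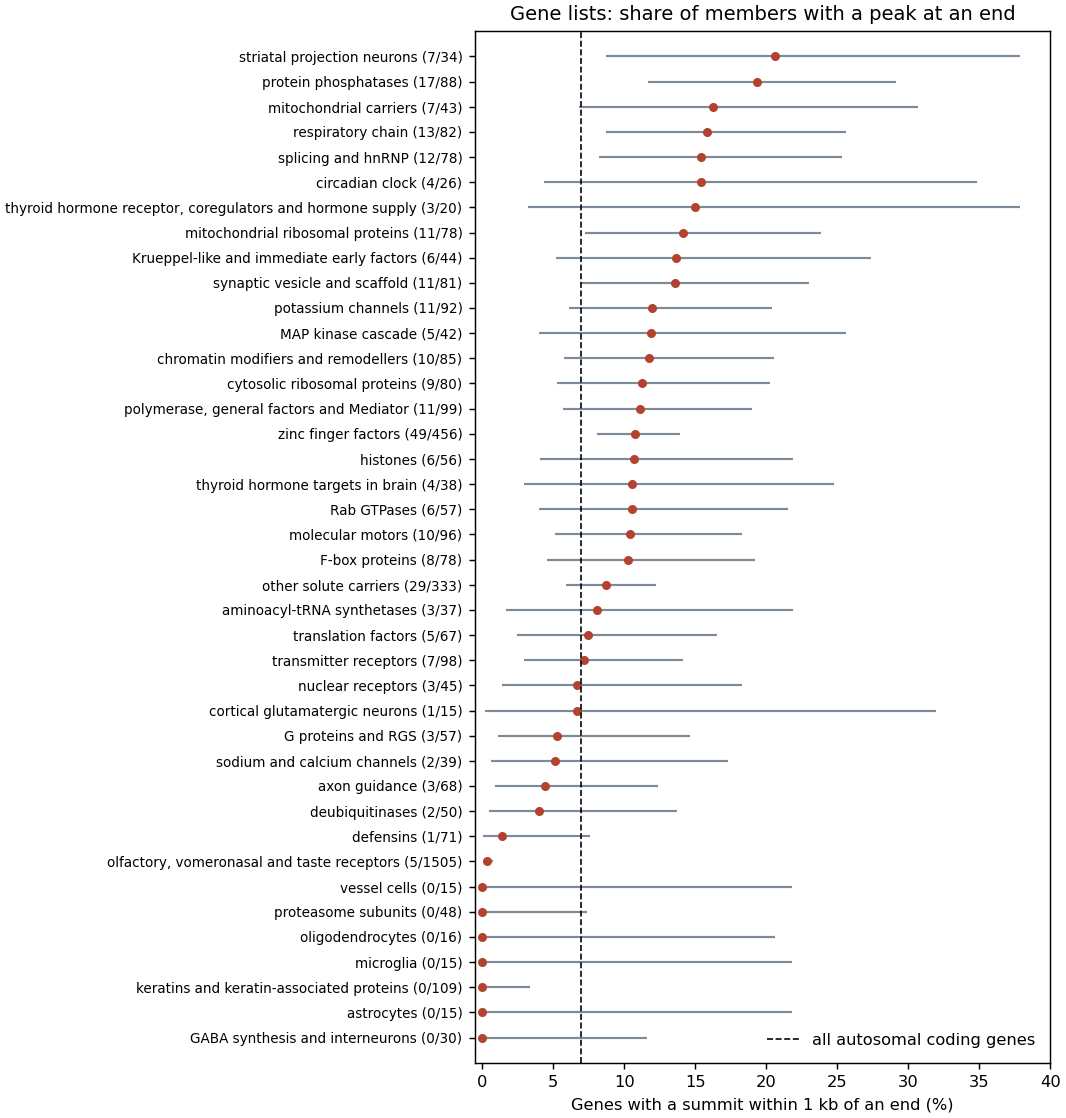
Share of the genes of each list with a summit within 1 kb of an end (x axis, percent; points with 95% exact intervals) for 40 lists (y axis, with the count of genes with a peak and of all genes). The dashed line marks all autosomal coding genes at 6.94%, and shares run from 0% to 20.6%.

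Respiratory chain, mitochondrial ribosome and splicing genes had intervals wholly above the share of all genes, while that of mitochondrial carriers included it. The respiratory chain had 13 of 82 genes (15.9%, 8.72 to 25.6), led by the complex I subunits Ndufa5 with a fold of 30.4 and Ndufs4 with 23.1, and by Atp5g2 of ATP synthase with 12.46. Mitochondrial ribosomal proteins had 11 of 78 (14.1%, 7.26 to 23.8), with Mrps18b at 18.9, and with Mrpl46 and Mrps11 at 1 shared peak of 14.96. Mitochondrial carriers had 7 of 43 (16.3%, 6.81 to 30.7), with Slc25a15, the ornithine carrier, at 13.4. Splicing factors and hnRNPs had 12 of 78 (15.4%, 8.21 to 25.3), with Hnrnpul1 at 34.9 and Hnrnpl at 25.2. With a 500 bp limit the splicing share was 7.69%, against 5.05% of all genes. Cytosolic ribosomal proteins had 9 of 80 (11.3%, 5.28 to 20.3), led by Rpl24 with 11.1. Proteasome subunits had 0 of 48 (exact interval up to 7.40%, where 3 counts would be 6.25%). A share like that of all genes is within both intervals.

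Regulators of transcription followed. Zinc finger factors had 49 of 456 genes (10.7%, 8.06 to 14.0), led by Zfp719 with a fold of 24.4, Zfp386 with 23.4, Zfp383 with 21.4 and Zfp607b with 21.0. The peak of Zfp607b is shared with Map3k10. The summit stretch of Zfp781 holds a long run of the same bases as that of a predicted gene on the same chromosome. Reads can be misplaced among such near copies. Polymerase subunits, general factors and Mediator had 11 of 99 (11.1%), and RNA polymerase III was named there by Polr3b, which had peaks of 8.16 at its start and 10.1 at its far end. Chromatin modifiers had 10 of 85 (11.8%, 5.79 to 20.6), with Kmt5c, a histone H4 methyltransferase, at 26.8 and Smarcd2 at 16.6. The intervals of the polymerase and chromatin lists include the share of all genes. Clock genes had 4 of 26 (15.4%, 4.36 to 34.9), namely Nr1d2, Bhlhe41 with 18.2, Npas2 with 15.98 and Per3 with 7.17. With a 500 bp limit the clock share was 3.85%, against 5.05% of all genes.

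The lists of the hormone pathway are short, and their intervals are wide. The receptors, coregulators and hormone supply had 3 of 20 genes (15%, 3.21 to 37.9), namely Rxrb with 29.0, the coactivator Ncoa3 with 12.4 and the corepressor Hr with 9.41. Thyroid hormone targets in brain had 4 of 38 (10.5%, 2.94 to 24.8), namely Flywch2, the glutaminase Gls2 with 13.7, Hr, and the calcium buffer Calb1 with 6.85. Nuclear receptors had 3 of 45 (6.67%), namely Nr1d2, Rxrb and Esrra with 6.59. The summit counted for Esrra lay 895 bp past its far end, but 24 bp inside the start of Prdx5 and 384 bp inside that of Trmt112. The Krueppel-like and immediate early factors had 6 of 44 (13.6%, 5.17 to 27.4), led by Jun with 8.08. Among peaks with a -log10 q of at least 10 their share was 2.27%, against 3.73% of all genes.

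Among signalling genes, protein phosphatases had the highest share, 17 of 88 (19.3%, 11.7 to 29.1), and a median fold of 9.45, against 7.17 over all genes with a peak. They included catalytic subunits, Ppp1ca with a fold of 26.3 and the calcineurin subunit Ppp3ca with 22.5, and the regulatory subunits Ppp1r10 with 18.9 and Ppp1r15a with 17.9. The peak of Ppp1r10 is the one named above for Mrps18b, 68 bp upstream of the start of Ppp1r10 and 4 bp upstream of that of Mrps18b. With a 500 bp limit the share was 11.4%. Genes of the MAP kinase cascade had 5 of 42 (11.9%, 3.98 to 25.6) and Rab GTPases 6 of 57 (10.5%, 3.96 to 21.5). Deubiquitinases had 2 of 50, the highest of which was Usp32 with 25.4. No Rab gene was left with a -log10 q of at least 10. Molecular motors had 10 of 96 (10.4%, 5.11 to 18.3), and 4 of these are the near-identical genes Dynlt1a, Dynlt1b, Dynlt1c and Dynlt1f, among which reads can be misplaced. The intervals of the MAP kinase, Rab and motor lists include the share of all genes. Solute carriers outside mitochondria had 29 of 333 (8.71%, 5.91 to 12.3).

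Neuronal genes were mixed. Synaptic vesicle and scaffold genes had 11 of 81 (13.6%), with Dlgap2, a scaffold protein of the postsynapse, at 16.6 and Unc13b, a vesicle priming factor, at 15.04. Among peaks with a -log10 q of at least 10 the synaptic share was 3.70%, against 3.73% of all genes. Potassium channels had 11 of 92 (11.96%, 6.12 to 20.4), led by Kcna5 with 24.4, and this interval includes the share of all genes. Transmitter receptors had 7 of 98 (7.14%), with Gabra4 and Gabrb1 sharing a peak of 18.2, 7 bp upstream of the start of Gabra4 and 394 bp inside that of Gabrb1. Axon guidance genes had 3 of 68 (4.41%), and sodium and calcium channels 2 of 39 (5.13%).

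Markers of cell types gave small counts. Striatal projection neuron markers had 7 of 34 genes (20.6%, 8.70 to 37.9) at 6 peaks, since Ppp1r1a and Pde1b share 1. The dopamine receptor gene Drd2 had the highest, with a fold of 19.2 at 588 bp past its far end, followed by the transcription factor Bcl11b with 8.15. Ppp1r1b, which encodes DARPP-32, had 6.20 at 45 bp inside an end. With a 500 bp limit the share of projection neuron markers was 11.8%, against 5.05% of all genes. Among peaks with a -log10 q of at least 10 it was also 11.8%, against 3.73% of all genes. Markers of GABA synthesis and interneurons had 0 of 30 (exact interval up to 11.6%, where 3 counts would be 10%), so that a share like that of all genes is within the interval. With a 2 kb limit their share was 6.67%, against 9.06% of all genes. Cortical glutamatergic markers had 1 of 15, Camk2a with 6.20. Markers of astrocytes, oligodendrocytes, microglia and vessel cells together had 0 of 61 (exact interval up to 5.87%, where 3 counts would be 4.92%). A peak is not expression, so these counts do not check which cells the chromatin came from. Genes restricted to other tissues had low shares, with olfactory, vomeronasal and taste receptors at 5 of 1505 (0.332%, 0.108 to 0.774) and keratins and their partners at 0 of 109.

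Other gene types lay near some gene-end peaks. Ends of long non-coding RNA genes were within 1 kb of 143 gene-end summits (11.2%, 9.54 to 13.1) and 276 other summits (4.50%, 3.99 to 5.05). The groups differ by rule in their distance to coding genes. The share of all coding gene ends near such a gene, or near a tRNA gene, is not given here. These shares therefore cannot tell whether the peaks favour such genes. Genes of tRNA were within 1 kb of 13 gene-end summits (1.02%) and 30 others (0.489%), and at 11 of the 13 the summit was nearer to the tRNA gene than to the coding gene's end. These 13 were low, with folds from 3.32 at Fcgr3 to 10.4 at Smarcc2 and a median of 5.20. The summit at Ctc1 lay 3 bp from a tRNA gene, that at Ppp6r3 5 bp and that at Tmpo 7 bp. Leaving out all peaks within 1 kb of a tRNA gene changed no call of the 7 tests.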

How the data were processed

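Sequencing reads were not used. The submitters' processing notes name MACS2 2.1.1.20160309.0, Bowtie2 2.3.4.2 and the builds mm10 and GRCm38, without settings. Nothing read here says if the 3 IP fractions were pooled. Per the file headers, the deposited columns used are the position, width and summit of a peak, its pileup signal, its fold over background (a linear ratio) and the −log10 of its q-value. Depth per library is unknown. Background was computed here as (pileup + 1) / fold − 1. Gene ends and promoter windows came from RefSeq tables (GRCm38.p6), and strand from the promoter table.

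Differences were fitted on log2 values by least squares (statsmodels 0.14.6), with chromosome as a factor, errors clustered by chromosome, two-sided p and Benjamini-Hochberg adjustment over 7 tests. The fit was run on simulated data with independent normal errors around chromosome shifts. Dependence among neighbouring peaks was therefore not checked. Shares carry 95% exact (Clopper-Pearson) intervals, and a count of 0 allows 3 counts. PCR duplicates mean that these cover counting error only.

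Members and lists were chosen with earlier results of these data known. Named genes are those at the 20 highest folds, the 5 widest and 5 narrowest peaks, up to 4 leading genes per list and peaks at 3 genes, predicted genes left out, and a few that the rule names are not reported here. The motif search, its mismatch limit, the tRNA examples, Zswim4 at its start, the Dynlt1 copies and the other list members named beyond these were chosen after their values were seen. Alternatives changed the q limit, distance, extremes, covariates and the peaks compared with.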

Additional observations from a re-analysis of the deposited data

How the results depend on the processing

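No paired analysis was possible because the files hold 1 peak list without a value per library, and for the same reason no replicate could be left out. Values here are log2 differences, gene-end minus other peaks or start minus far end. With a −log10 q of at least 10, the pileup difference was 0.0257, the width difference 0.0585 (adjusted p = 0.0761, n = 673 gene-end peaks), the width difference of start and far-end peaks 0.178 (adjusted p = 0.00364), and 3.73% of coding genes had a gene-end peak. With a 500 bp limit, the pileup difference was 0.000614, the width difference 0.0387 (adjusted p = 0.0894, n = 927), that at equal pileup 0.0384 (adjusted p = 0.0589), and 5.05% of coding genes had a peak. With a 2 kb limit 9.06% had one. Against other peaks inside gene spans, chosen after seeing the data, the pileup difference was 0.0113 and the fold difference 0.0503 (adjusted p = 0.0498, n = 1275). Against those outside, the width difference was 0.0438 (adjusted p = 0.0661, n = 1275). At equal fold in place of equal pileup, also chosen after seeing the data, the width difference was 0.0284 (adjusted p = 0.0650, n = 1275). Without the 1% highest pileups and 1% widest peaks, the start and far-end fold difference was 0.148 (adjusted p = 0.0573, n = 893 and 131). The repeat spaced by 4 was in 0.765% of windows with a summit at 1 mismatch, 34.7% at 3 and 12.9% of CpG-poor windows. The pileup difference passed the test in none of these settings, and its sign is not settled. Of list shares under other settings, 103 stayed within their interval of the main setting and 17 did not, 12 of them with the q limit and 5 with the 500 bp limit. Both limits only remove peaks, and the share of all genes falls with them. These counts therefore do not tell whether a list keeps its place against all genes. The causes were not tested.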

Other observations

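Some gene families with a common symbol stem had no gene with a gene-end peak, and others had a share above that of all coding genes. Stems of 3 letters with at least 30 autosomal genes were examined after the data were seen, and the share of all coding genes was 6.94%. The stem Hox, of the body-axis homeobox factors, had 0 of 39 genes, and Pcd, mostly protocadherins, had 0 of 67. Rbm, of RNA-binding motif proteins, also had 0 of 39. No interval was computed for a stem, and the stems named were picked from both ends of the ranking. For 0 of 48 proteasome genes the interval reached 7.40%, so 0 of 39 does not set a stem apart from all coding genes. The highest share was that of the stem Ppp, with 16 of 76 (21.1%). The stem Cep, of centrosomal proteins, had 7 of 39 (17.9%), and Cdc, of cell division cycle genes, had 6 of 42 (14.3%). Genes of one stem often lie in 1 cluster and can share a peak, so that these counts are not independent.

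Of the genes with a strand and a summit within 1 kb of both ends, 18 had 2 or more peaks there. Akt2, a kinase of insulin signalling, had a fold of 8.80 at its start and 12.05 at its far end. Dlst, of the tricarboxylic acid cycle, had 5.55 at its start and 13.3 at its far end. Mrps30 had 13.3 at its start and 4.90 at its far end.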
